A study of Mus musculus with 7 samples.

Results

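The genes of cell proliferation described here are 50 genes with established roles in DNA replication and mitosis, and they were followed in the mammary gland of wild-type mice and of PRA transgenic mice, array by array and by genotype. Members were found by gene name among the noncontrol probes, and all 50 were on the array with 95 of its 56605 probes. For each gene the probe brightest in the gland channel was used, and 47 genes could be tested, their gland signal standing well above background throughout 1 genotype or the other. PRA transgenic mice carry extra A form of the progesterone receptor in addition to their own receptor. In these bigenic mice, GAL-4 is produced from the murine cytomegalovirus (CMV) promoter and switches on a UAS-PR-A transgene, and neither element is described as limited to mammary epithelium. The 3 wild-type and 4 PRA transgenic mice were nulliparous FVB females of 20 to 25 weeks, all taken at diestrus, and the labels call the PRA transgenic glands preneoplastic. One abdominal gland per animal was used after its lymph nodes had been cut out, and each array holds 1 animal. Gland RNA carried Cy5 and Universal Mouse Reference RNA, a pool from mouse cell lines, carried Cy3. Each value below is the log2 ratio of gland to reference, so that a value of 0 means equal signal.

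A cell that divides first licenses its replication origins and makes nucleotides and the replication machinery in G1 and S phase, and then makes the cyclins, kinases, motors and kinetochore proteins of G2 phase and mitosis. E2F factors switch on many genes of the first group, whereas the MuvB complex with B-Myb and FoxM1 switches on many of the second group through CHR elements and, through NF-Y, CCAAT boxes. In the mammary gland, progesterone of the luteal phase drives epithelial division, largely through signals such as RANKL (Tnfsf11) that receptor-positive cells send to their neighbors. The 50 genes comprise 17 of G1/S and 33 of G2/M, of which 16 and 31 were tested. Because whole glands were measured, fewer dividing cells and less of each RNA per dividing cell cannot be told apart.

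All 7 arrays were on 1 slide and in 1 scan, with wild-type arrays in row 1 and PRA transgenic arrays in row 2, so the row on the slide cannot be told apart from genotype. The gland signal was well above background for 62.7% to 66.2% of probes in wild-type and for 56.6% to 60.2% in PRA transgenic arrays, and no spot was saturated. Luminal, basal and white adipocyte markers were well above background on all arrays (10 of 10, 7 of 7 and 6 of 6 genes). Skeletal muscle markers set the animals apart, with median log2 ratios of 2.21, -1.18 and 4.08 in wild-type replicates 1 to 3 and of -1.01, -1.43, -1.21 and 2.98 in PRA transgenic replicates 1 to 4. T cell markers were highest in wild-type replicate 1, at 0.80 against -0.67 to -0.32 on the other arrays.

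The promoters of 6 genes are shown because motif content differed between the member groups, with 3 G2/M genes (cyclin B1, its kinase and Polo-like kinase 1) and 3 G1/S genes (a helicase subunit, the replication clamp and cyclin E1) chosen whatever motifs they held. Each stretch runs from 250 bases before the annotated start through the first 30 bases of the transcript, and comes from RefSeq on GRCm38.p6. Ccnb1 is at chr13:100786457-100786736 on the minus strand, Cdk1 at chr10:69352883-69353162 on the minus strand and Plk1 at chr7:122159185-122159464 on the plus strand. Mcm5 is at chr8:75109259-75109538 on the plus strand, Pcna at chr2:132253151-132253430 on the minus strand and Ccne1 at chr7:38107461-38107740 on the minus strand. Capitals mark CHR elements, CCAAT boxes and E2F sites on either strand, which may overlap. The CHR was searched as TTTGAA and, in its other form, as TTCGAA, and the CCAAT box by its name alone. The E2F site was searched as TTCCCGC, with the variant TTCGCGC, with the variant TTGGCGC and with the variant TTGCCGC.
Ccnb1: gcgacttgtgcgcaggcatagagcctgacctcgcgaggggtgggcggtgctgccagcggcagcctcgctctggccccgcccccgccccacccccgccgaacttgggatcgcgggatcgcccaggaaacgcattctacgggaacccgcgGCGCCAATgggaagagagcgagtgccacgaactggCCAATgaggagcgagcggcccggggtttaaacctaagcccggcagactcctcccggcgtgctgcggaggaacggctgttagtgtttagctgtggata
Cdk1: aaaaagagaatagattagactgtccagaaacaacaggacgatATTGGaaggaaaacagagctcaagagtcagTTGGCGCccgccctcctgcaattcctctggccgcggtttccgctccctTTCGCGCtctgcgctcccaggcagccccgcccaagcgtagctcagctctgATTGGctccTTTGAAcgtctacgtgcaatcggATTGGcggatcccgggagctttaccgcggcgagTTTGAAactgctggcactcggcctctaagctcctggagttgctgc
Plk1: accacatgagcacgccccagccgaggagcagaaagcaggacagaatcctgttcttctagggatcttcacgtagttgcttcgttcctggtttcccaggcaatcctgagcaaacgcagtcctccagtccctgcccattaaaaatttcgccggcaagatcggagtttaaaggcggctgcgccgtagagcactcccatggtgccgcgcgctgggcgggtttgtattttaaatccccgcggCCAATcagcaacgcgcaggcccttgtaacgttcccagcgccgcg
Mcm5: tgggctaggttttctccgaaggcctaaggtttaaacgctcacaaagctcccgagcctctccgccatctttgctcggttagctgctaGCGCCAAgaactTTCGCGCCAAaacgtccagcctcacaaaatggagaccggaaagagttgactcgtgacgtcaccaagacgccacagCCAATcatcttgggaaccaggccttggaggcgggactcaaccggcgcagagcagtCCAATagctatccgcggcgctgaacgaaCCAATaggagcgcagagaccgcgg
Pcna: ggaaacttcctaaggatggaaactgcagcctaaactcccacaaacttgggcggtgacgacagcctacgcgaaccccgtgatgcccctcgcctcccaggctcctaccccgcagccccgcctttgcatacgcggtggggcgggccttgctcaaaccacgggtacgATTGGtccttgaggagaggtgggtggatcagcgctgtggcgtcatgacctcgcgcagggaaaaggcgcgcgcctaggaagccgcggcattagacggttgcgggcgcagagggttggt
Ccne1: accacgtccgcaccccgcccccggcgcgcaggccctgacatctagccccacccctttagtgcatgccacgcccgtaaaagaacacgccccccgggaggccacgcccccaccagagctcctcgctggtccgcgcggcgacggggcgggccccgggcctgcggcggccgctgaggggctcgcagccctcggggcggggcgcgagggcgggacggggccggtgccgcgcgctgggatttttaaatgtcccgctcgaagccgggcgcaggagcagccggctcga
The Cdk1 stretch holds motifs of all kinds, with 2 CHR, 3 CCAAT and 2 E2F matches. Plk1 has 1 CCAAT box here, and its CHR match starts 30 bases after the start base, just past the printed stretch. Ccnb1 has 2 CCAAT boxes and 1 E2F match that overlaps one of them, and Mcm5 has 3 CCAAT and 3 E2F matches. Pcna has 1 CCAAT box, and none of these letters occur in the Ccne1 stretch.

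Promoter windows of 250 bases before to 50 after the start were found for 42 of the 50 members, 45 windows in all. Ect2, Prc1 and Mcm7 had more than 1 window. Those of Ect2 and of Prc1 hold the same sites, which are counted once per window below. CHR elements were in 79.3% of the 29 G2/M windows, 12.5% of the 16 G1/S windows and 19.2% of all 32851 windows. E2F sites went the other way, with 56.3% of G1/S windows, 20.7% of G2/M windows and 9.57% of all windows. CCAAT boxes were in 79.3% of G2/M, 56.3% of G1/S and 37.4% of all windows. Among protein-coding windows alone the shares were 17.6% for CHR, 38.2% for CCAAT and 12.1% for E2F. Both a CHR element and a CCAAT box were in 21 G2/M and 2 G1/S windows, and in 7.52% of all windows. An E2F match that shares letters with a CCAAT box was found in 1 G1/S and 3 G2/M windows, where Ect2 counts once per window. Of the 32 CHR matches in G2/M windows, 21 began within 50 bases of the start. These are matches of letters, and binding was not measured. No window was found for Aurkb, Ccna2, Ccne2, Cdc25c, Foxm1, Kif20a, Mcm4 and Tpx2.

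**Figure D1:**
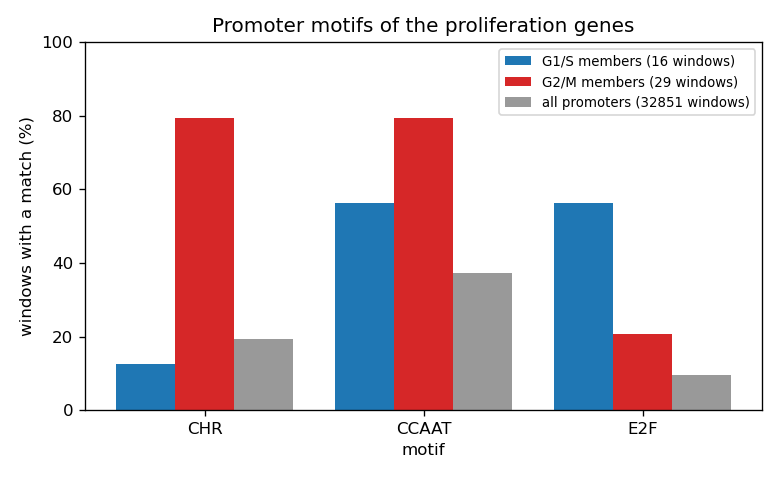
Share of promoter windows (vertical axis, %) with at least 1 match to the CHR, CCAAT and E2F motifs in G1/S members, G2/M members and all promoters. CHR stands highest in G2/M members (79.3%) and E2F in G1/S members (56.3%).

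The first comparison asked whether extra PRA goes with more or less proliferation gene RNA in the gland. No member passed the test for a difference between genotypes. Mki67, which encodes the proliferation antigen Ki-67 (probe at chromosome 7 of mm9, 142881591 to 142881650), had log2 ratios of -3.94, -5.06 and -1.71 in the wild-type and of -4.44, -2.20, -3.62 and -3.09 in the PRA transgenic glands. The lowest and the highest gland were both wild-type, and all 4 PRA transgenic glands were between them. Mki67 had means of -3.57 ± 1.70 (SD, n = 3) and -3.34 ± 0.94 (SD, n = 4), and its log2 fold change was 0.23 with a standard error of 0.83 (adjusted p = 0.966, limma with Benjamini-Hochberg adjustment). The 95% interval of this difference, from -1.73 to 2.20, leaves room for a change of several fold in either direction.

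At an unadjusted P under 0.05, 0 of 47 members were called by limma, against a background of 7.53% of 15308 genes, 3.02% higher and 4.51% lower in PRA transgenic glands. With a 1.5-fold change required as well, 0 members were called, where the background was 3.66%. After adjustment 0 members were called and the background was 0.00%, and the methods' t-test also called 0 members at P under 0.05. Genotypes overlapped for all 47 members, while 9.13% of genes did not overlap, 4.86% with PRA transgenic glands lower. All 4 PRA transgenic values were inside the wild-type range for 38 of 47 members and for 13.0% of all genes. By sign, 31 members were lower and 16 higher in PRA transgenic glands, and 50.3% of all genes were lower. The median log2 fold change was -0.06 for members, -0.03 for G1/S and -0.08 for G2/M members, and -0.00183 for all genes. The smallest unadjusted P of any member was 0.464, for Pcna in the limma fit.

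**Figure D2:**
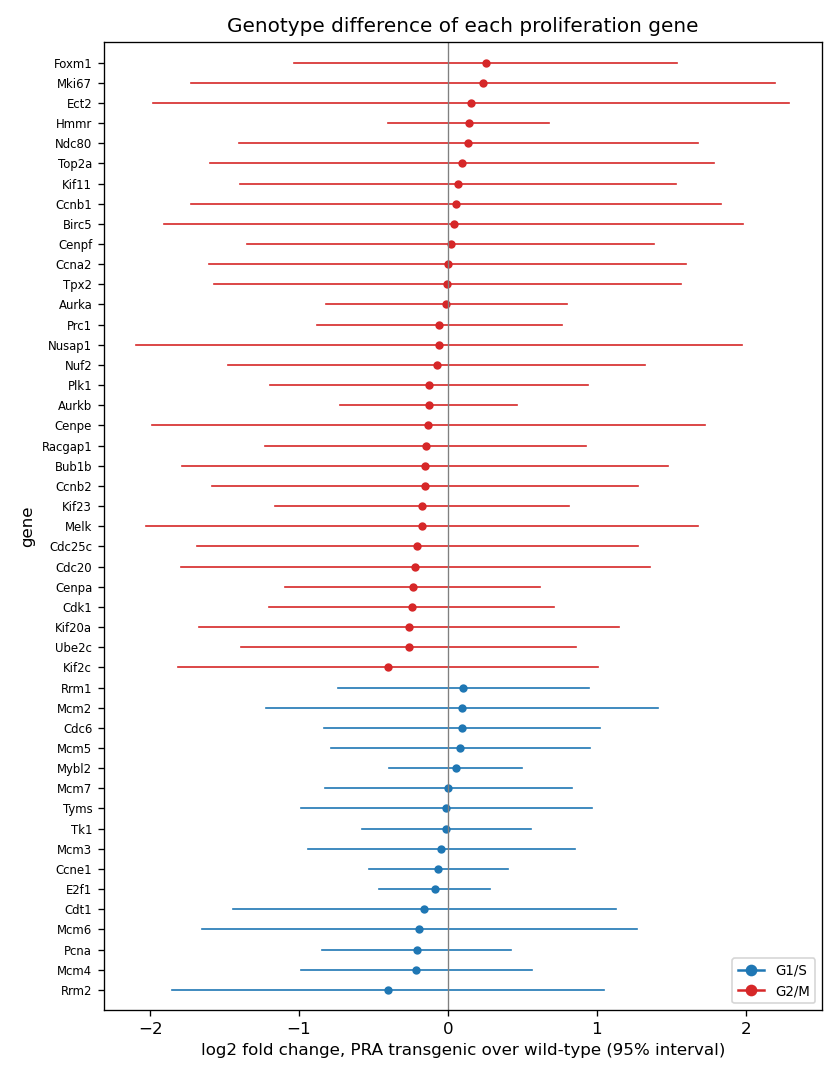
Log2 fold change of PRA transgenic over wild-type (horizontal axis) with its 95% interval for each of the 47 members tested, G1/S in blue and G2/M in red. Every interval includes 0, with estimates from -0.40 for Kif2c to 0.25 for Foxm1.

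These small differences came with wide errors. The median standard error was 0.547 log2 for members and 0.182 for all genes, so a difference had to be larger in members than in most genes to be seen. The intervals over all members ran from -2.09 to 2.29. The sign turned with single arrays of either genotype. Without wild-type replicate 2, the lowest gland, 46 of 47 members were lower in PRA transgenic glands (median -0.51; 48.7% of all genes lower), with Hmmr the exception. Without wild-type replicate 3, the highest gland, 47 of 47 were higher (median 0.42; 49.7% of all genes higher). Genotypes then no longer overlapped for Aurka and Hmmr, against 15.9% of all genes. Without PRA transgenic replicate 1, 32 members were higher and 15 lower (median 0.09), and without PRA transgenic replicate 2, 2 were higher and 45 lower (median -0.28). In none of these cases was a member called by limma.

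E2f1 and Mybl2, transcription factors of the cycle, were the least variable members. E2f1, which acts on G1/S genes, had log2 ratios of -1.91, -1.77 and -1.38 in the wild-type and -1.80, -1.63, -1.76 and -1.91 in the PRA transgenic glands. Its values covered only 1.44-fold over the 7 animals, and its log2 fold change was -0.09 (SE 0.16). Mybl2, the gene of B-Myb, covered 1.63-fold. Foxm1, the forkhead factor of G2/M genes, covered 4.53-fold and had the highest estimate among members, 0.25 (SE 0.55, adjusted p = 0.934 from limma).

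The 8 genes of origin licensing and the helicase subunits Mcm2 to Mcm7 covered 2.29-fold to 4.87-fold. Mcm2 had log2 ratios of -2.94, -3.96 and -2.04 in the wild-type and -3.34, -2.39, -2.06 and -3.75 in the PRA transgenic glands. Wild-type replicate 3 and PRA transgenic replicate 3 were nearly equal at the top, and each genotype also had a gland near the bottom. The log2 fold change of Mcm2 was 0.09 (SE 0.56). Mcm6 (probe at chromosome 1 of mm9, 130228178 to 130228237) had -2.56, -3.44 and -1.16 in the wild-type and -3.23, -2.11, -1.66 and -3.29 in the PRA transgenic glands, with an estimated log2 fold change of -0.19 (SE 0.62). Mcm3, Mcm4, Mcm5 and Mcm7 covered no more than 2.57-fold. Cdc6, which loads the helicase, covered 2.60-fold and Cdt1, its partner, 4.36-fold.

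Among genes for the replication clamp and nucleotide supply, Pcna had the smallest P. Its log2 ratios were -1.39, -1.63 and -0.83 in the wild-type and -1.82, -1.26, -1.08 and -1.82 in the PRA transgenic glands, and the log2 fold change was -0.21 (SE 0.27, adjusted p = 0.868 from limma). The ranges overlapped, with PRA transgenic replicates 1 and 4 the lowest glands. Rrm2, a subunit of ribonucleotide reductase, had -3.79, -5.08 and -2.55 in the wild-type and -4.80, -3.45, -3.83 and -4.74 in the PRA transgenic glands, with a log2 fold change of -0.40 (SE 0.62). The gene for the larger subunit, Rrm1, was at 0.10 (SE 0.36), so the subunits had estimates of opposite sign, both inside their errors.

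Cyclins and their kinase belong to both groups. Ccnb1, cyclin B1 of mitotic entry, had log2 ratios of -4.09, -4.95 and -2.04 in the wild-type and -4.58, -2.66, -4.21 and -3.11 in the PRA transgenic glands, and a log2 fold change of 0.05 (SE 0.76). Its partner Cdk1 had -3.04, -3.34 and -1.96 against -3.70, -2.40, -3.10 and -2.88, and -0.24 (SE 0.41). Ccna2, cyclin A2, was at -0.00220 (SE 0.68). In Ccnb1, Cdk1 and Ccna2 wild-type replicate 3 was the highest gland. Ccne1, cyclin E1 of S phase entry, covered only 1.70-fold, and Ccne2 did not stand well above background in any gland.

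Mitotic genes covered the widest ranges. Birc5, survivin of the chromosomal passenger complex, had -3.76, -4.82 and -1.45 in the wild-type and -4.34, -2.23, -3.61 and -3.04 in the PRA transgenic glands, with an estimated log2 fold change of 0.04 (SE 0.83). It covered 10.3-fold over the 7 animals, and Mki67 10.2-fold. Its partner Aurkb, the Aurora B kinase, covered only 1.95-fold with a log2 fold change of -0.13 (SE 0.25). Ect2, an exchange factor of cytokinesis, covered 13.1-fold and Nusap1, a spindle microtubule protein, 12.5-fold. Top2a, the topoisomerase that untangles chromosomes, had -4.03, -5.25 and -2.22 in the wild-type and -4.68, -2.88, -3.67 and -3.72 in the PRA transgenic glands, with an estimated log2 fold change of 0.09 (SE 0.72). Again wild-type glands stood at both ends.

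Kif2c, a kinesin that takes microtubules apart, had the lowest estimate, -0.40 (SE 0.60, adjusted p = 0.889 from limma). Its values were -4.09, -4.15 and -2.58 in the wild-type and -4.90, -2.84, -4.66 and -3.64 in the PRA transgenic glands. Gland signal was not well above background in PRA transgenic replicates 1 and 3, so Kif2c entered the test through the wild-type arrays. Ube2c, an E2 enzyme of mitotic exit, was at -0.26 (SE 0.48) and Kif20a, a kinesin of cytokinesis, also at -0.26 (SE 0.60). At the other end were Ect2 at 0.15 (SE 0.91), Hmmr, a spindle protein, at 0.14 (SE 0.23) and Ndc80, a kinetochore protein, at 0.14 (SE 0.66). The checkpoint kinases Bub1 and Ttk were not tested. Bub1 was not well above background in wild-type replicate 2 and PRA transgenic replicate 1, and Ttk in those glands and in PRA transgenic replicate 3.

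Of the 24 members with more than 1 probe, 20 had several that were kept, and in 13 of these the estimates differed in sign. None of the 79 member probes kept had P under 0.05, and the lowest was 0.160 for a second probe of Aurkb in limma.

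Members varied more from gland to gland than most genes. Animal, tissue taken and preparation cannot be told apart, since each animal gave 1 gland and 1 array. The median range of a member over the 7 arrays was 2.13 log2, or 4.36-fold, against 0.694 log2 for all genes. Within a genotype the median SD was 0.845 for members and 0.240 for all genes. A range above 4-fold was found for 24 of 47 members and 8.65% of all genes, and 46 members exceeded the range of the median gene. G2/M members covered more (median 2.38 log2, from 0.75 to 3.71) than G1/S members (median 1.29, from 0.53 to 2.54).

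The same glands were at the ends for nearly every member. Wild-type replicate 3 was the highest array for 47 of 47 members and for 16.7% of all genes. PRA transgenic replicate 2 was second for 37 of 47. With wild-type replicate 3 left out, it was the highest array for these 37 and for 16.9% of all genes. Wild-type replicate 2 was the lowest array for 37 of 47 members and for 13.6% of all genes. PRA transgenic replicate 1 was second lowest for 26 members, a place for which the share over all genes was not computed. So each genotype held a high and a low gland. Over all probes kept, 72 of 79 were highest in wild-type replicate 3. Without that array the median member range was 1.43 log2 against 0.640 for all genes.

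The medians over members show the size of this difference. They were -3.14, -3.73 and -1.66 in the wild-type glands, -2.84 ± 1.07 (SD, n = 3), and -3.38, -2.23, -3.22 and -2.89 in the PRA transgenic glands, -2.93 ± 0.51 (SD, n = 4). From wild-type replicate 2 to replicate 3, members differed by a median of 1.92 log2, while all genes differed by -0.04. From PRA transgenic replicate 1 to replicate 2 the median difference was 1.13, with 46 of 47 members higher in replicate 2. All 47 members were below the reference on all 7 arrays, as were 32.3% of all genes, and the median member mean was 7.59-fold below it. The reference is made from cultured lines, which divide, and the part of this in the ratios was not tested.

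**Figure D3:**
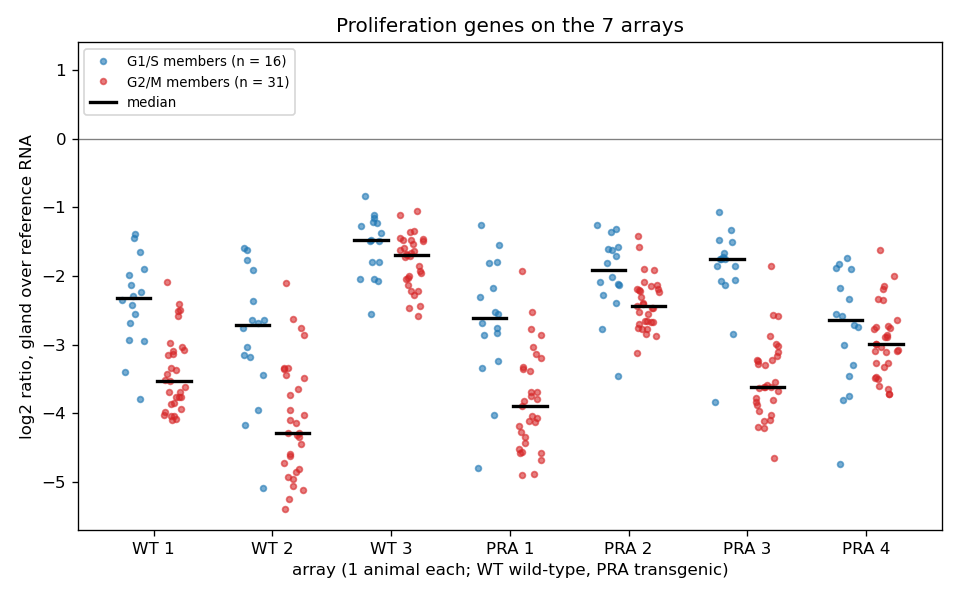
Log2 ratio of gland to reference (vertical axis) of 16 G1/S members (blue) and 31 G2/M members (red) on each array, 1 animal each; black lines are medians. Wild-type replicate 3 has the highest medians (-1.48 and -1.70) and wild-type replicate 2 the lowest (-2.72 and -4.29).

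The spread was in the gland channel. In Cy5 alone, scaled to the 75th percentile of each array, wild-type replicate 3 was again highest for 47 of 47 members and wild-type replicate 2 lowest for 37, with a median range of 2.17 log2. In Cy3 alone the median range was 0.135 log2, and no array was highest for more than 14 members. The reference therefore stayed nearly level while the glands moved.

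**Figure D4:**
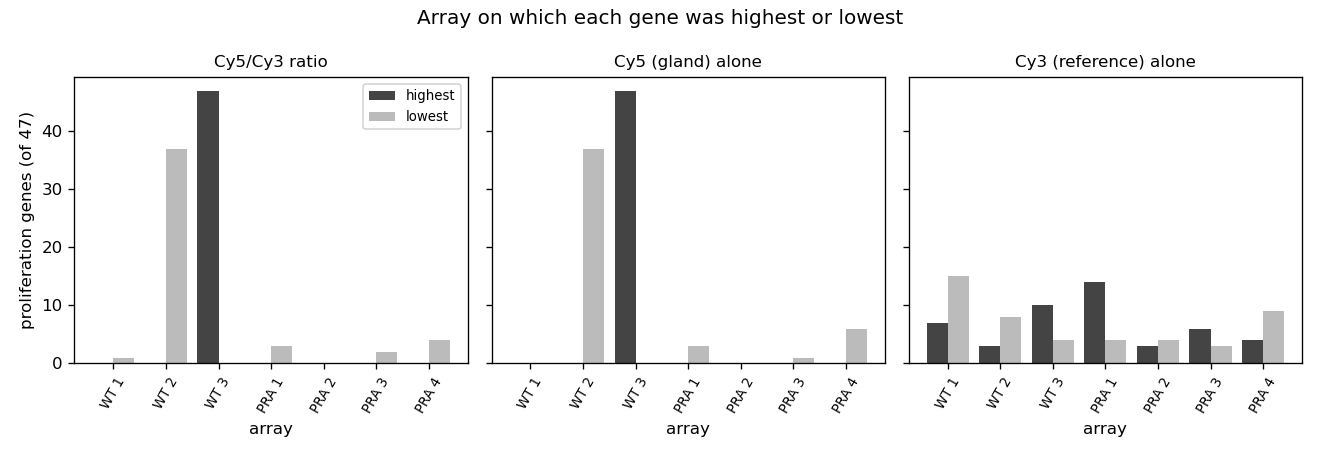
Number of the 47 members (vertical axis) whose highest (dark) and lowest (light) value was on each array (horizontal axis), for the ratio, the gland channel and the reference channel. Wild-type replicate 3 takes all 47 highest values in the ratio and in Cy5, and 10 in Cy3.

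Epithelial and fat markers shared this order in part, depending on the scale. Median log2 ratios of luminal markers were 3.44, 1.91 and 2.56 in the wild-type and 2.74, 2.61, 2.38 and 2.64 in the PRA transgenic glands, so wild-type replicate 2 was lowest here too but replicate 1 was highest. Of the 10 luminal markers, 2 were highest in wild-type replicate 3 by the ratio. In Cy5 alone, relative to the 75th percentile of the array, their medians were 2.51, 2.19 and 3.74 in the wild-type and 2.06, 3.38, 2.43 and 2.17 in the PRA transgenic glands, so wild-type replicate 3 was highest and PRA transgenic replicate 2 second, as for members. White adipocyte markers ran the other way in Cy5 alone, with medians of 6.72, 7.16 and 6.34 in the wild-type and 7.29, 6.12, 6.48 and 6.80 in the PRA transgenic glands. Wild-type replicate 3 and PRA transgenic replicate 2 were lowest in these markers, and wild-type replicate 2 and PRA transgenic replicate 1 highest. By the ratio, the adipocyte medians of 6.18 to 6.76 put wild-type replicate 2 lowest. The summed gland signal of luminal markers, on the log2 scale relative to the 75th percentile of the array, was 7.51 to 8.33 in wild-type and 7.30 to 8.18 in PRA transgenic arrays. Of 8 skeletal muscle markers 6 were kept, and 6 of 6 were highest in wild-type replicate 3. By their median PRA transgenic replicate 4 was second and PRA transgenic replicate 2 lowest. Their summed gland signal was 1.29 to 7.81 in wild-type and 1.82 to 6.20 in PRA transgenic arrays. The part of these cells in the member values was not tested.

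G1/S and G2/M members parted in PRA transgenic glands 3 and 4, a pair chosen after the values had been seen. All 16 G1/S members were higher in replicate 3 than in replicate 4, by a median of 0.86 log2. Of the 31 G2/M members only 4 were (Foxm1, Melk, Ndc80 and Top2a), and the median difference was -0.57. Over all genes 49.3% were higher in replicate 3, with a median of -0.00628. Among the members, replicate 3 thus had higher levels of the G1/S genes and lower levels of most G2/M genes. Replicate 4 was the lowest array for 4 of 16 G1/S members, 0 of 31 G2/M members and 16.8% of all genes. Wild-type replicate 2 was the lowest array for 11 of the 16 G1/S members.

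**Figure D5:**
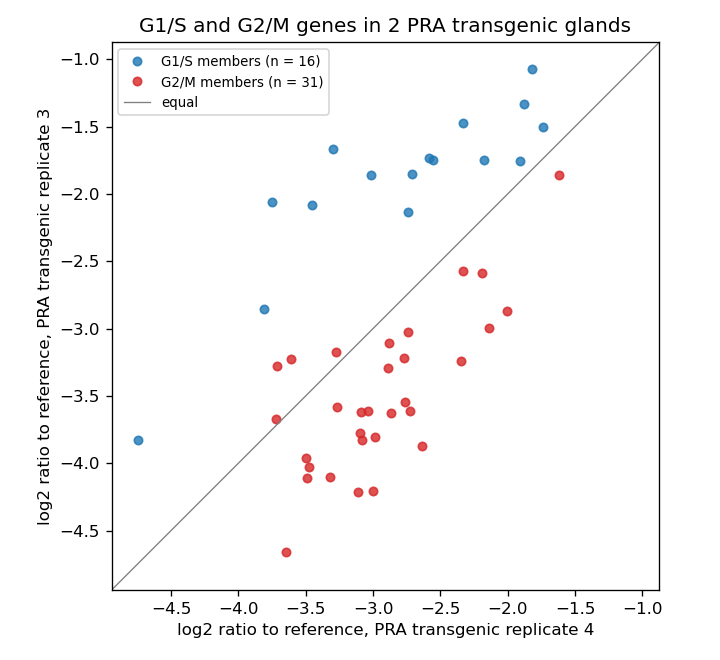
Log2 ratio to the reference of each member in PRA transgenic replicate 4 (horizontal axis) and replicate 3 (vertical axis), G1/S in blue and G2/M in red; the line marks equal values. All 16 G1/S members are above the line and 27 of 31 G2/M members below it.

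The median of G1/S members less that of G2/M members was 1.21, 1.57 and 0.22 in the wild-type and 1.27, 0.52, 1.86 and 0.35 in the PRA transgenic glands. PRA transgenic replicate 3 had the largest gap also in Cy5 alone (2.45) and after normexp and loess (1.41), and in these settings PRA transgenic replicate 4 had the smallest (0.93 and 0.13), where in the ratios it was wild-type replicate 3. The 6 helicase subunits showed it plainly, with a median of -1.79 in PRA transgenic replicate 3 and -2.86 in replicate 4. Of the other origin and fork genes, which are not members, 31 of 33 were higher in replicate 3 than in replicate 4. Lists of other mitotic genes did not follow the G2/M members as a whole. Higher in replicate 3 were 10 of 19 other kinetochore and passenger genes and 7 of 13 condensin and cohesin genes. So were 13 of 18 other spindle checkpoint and anaphase-promoting complex genes. In each list the remaining genes were lower in replicate 3, as most G2/M members were. The lists varied less over the 7 arrays than the G2/M members (median range 2.38 log2). Their median ranges were 1.64, 0.75 and 0.44 log2 in the order given, against 0.694 for all genes. Skeletal muscle markers (0 of 6 higher in replicate 3) also differed between these glands, as did macrophage, endothelial and fibroblast markers (1 of 6 each). The counts were 3 of 10 for luminal, 4 of 7 for basal and 2 of 6 for white adipocyte markers. They were 4 of 8 for T cell, 4 of 5 for B cell and 2 of 3 for erythroid markers. The part of these cells was not tested.

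Signals known to drive mammary epithelial division were listed for comparison. Tnfsf11, the RANKL gene that progesterone induces, had log2 ratios of 2.03, 0.23 and 6.33 in the wild-type and -0.54, 6.29, 4.71 and -0.56 in the PRA transgenic glands. Its gland signal was high in wild-type replicate 3 and in PRA transgenic replicates 2 and 3, and was not well above background in wild-type replicate 2 and PRA transgenic replicates 1 and 4. The 3 glands with the highest G1/S medians (-1.48, -1.92 and -1.75) were those with the highest Tnfsf11, and the 3 glands where it was not well above background had the lowest G1/S medians (-2.72, -2.62 and -2.65). Wild-type replicate 1 was between them on both. Some cell type markers moved with this split in summed Cy5 signal and others did not, and their part was not tested. The summed Cy5 signal of basal markers, relative to the 75th percentile, was highest in the same glands (6.91 in wild-type replicate 3, 6.83 and 6.71 in PRA transgenic replicates 2 and 3) and 6.21 to 6.64 in the rest. That of white adipocyte markers was lowest in them (10.21, 9.85 and 10.04) and 10.32 to 10.72 in the rest. Summed luminal markers did not follow the split, with 8.16, 8.18 and 7.30 in these glands and 7.51 to 8.33 in the rest. By the ratio, basal medians (2.97, 3.16 and 3.16 against 2.92 to 3.23) did not follow it. Nor did white adipocyte medians by the ratio (6.21, 6.27 and 6.48 against 6.18 to 6.76). A second Tnfsf11 probe gave 1.67, -0.02 and 5.41 in the wild-type and -0.59, 4.89, 4.25 and -0.17 in the PRA transgenic glands, the same split. In Cy5 alone, relative to the 75th percentile, the brighter probe had 0.35, 0.72 and 0.50 in the 3 high glands, -4.14 in wild-type replicate 1 and -6.28 to -5.98 in the rest. Neither genotype was measured throughout and the reference was not well above background, so Tnfsf11 was not tested, and it was singled out after its values had been seen. G2/M medians did not follow it, since PRA transgenic replicate 3, at -3.61, was below replicate 4.

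The 8 other signals in that list that were tested gave 4 higher and 4 lower estimates. None was at P under 0.05 in limma, against 7.53% of all genes. Myc had the lowest P in limma (log2 fold change -0.59, SE 0.54, unadjusted P = 0.312, adjusted p = 0.798). Ccnd1, cyclin D1, had -1.12, -2.01 and -0.45 in the wild-type and -1.67, -0.23, -0.64 and -1.73 in the PRA transgenic glands. Its highest glands were again those with high Tnfsf11. The same held for Wnt4 and Myc, by small margins. PRA transgenic replicate 3 was at 0.91 against 0.90 in wild-type replicate 1 for Wnt4, and at -1.72 against -1.76 for Myc. Areg, an EGF receptor ligand, did not follow, with its highest value, 4.53, in wild-type replicate 1. Its gland signal was well above background in only 3 of the 4 PRA transgenic glands. Egfr, Igf1, Prlr and Tnfrsf11a did not follow either.

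Further cell cycle genes outside the members gave little difference by genotype, and 0 passed the adjusted threshold (0.00% of all genes). For the counts below, 7.53% of all genes were at P under 0.05 in limma and 9.13% did not overlap between genotypes. In a list of 8 genes, made of D-type cyclins, G1 kinases, Ccnh and Cdk7, 2 were higher and 6 lower. Of these, 0 were at P under 0.05 in limma (lowest P for Cdk2, 0.0991). Among 17 cyclin-dependent kinase inhibitors, pocket proteins and DREAM repressors 10 were higher and 7 lower, with 0 at P under 0.05 (lowest for Cdkn2a, 0.171). Their array medians, from -1.01 to -0.54, were lowest in PRA transgenic replicate 2. Of 33 other origin and fork genes 18 were higher and 15 lower, with 0 at P under 0.05 (lowest for Pola2, 0.149), and 18 were highest in wild-type replicate 3. Of 13 condensin and cohesin genes 4 were higher and 9 lower, with 0 at P under 0.05 (lowest for Ncaph2, 0.107) and with Rad21, a cohesin subunit, not overlapping. Of 19 other kinetochore and passenger genes 3 were higher and 16 lower, with 0 at P under 0.05 (lowest for Knstrn, 0.180), and 16 were highest in wild-type replicate 3.

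The 18 other spindle checkpoint and anaphase-promoting complex genes held the nearest to a genotype difference. Pttg1, the gene of securin, had log2 ratios of -0.92, -0.69 and -1.22 in the wild-type and -2.12, -1.59, -2.16 and -1.78 in the PRA transgenic glands. Every PRA transgenic gland was below every wild-type gland. The log2 fold change was -0.97 (SE 0.20, unadjusted P = 0.00167, adjusted p = 0.332 from limma), so it did not pass after adjustment. With each array left out the log2 fold change of Pttg1 was -1.11 to -0.84, and over all alternatives the adjusted p from limma or the methods' t-test was 0.240 to 0.625. Wild-type replicate 3, the highest gland for all members, was the lowest wild-type gland for Pttg1. Anapc1, a subunit of the complex, was the other gene at P under 0.05 (-0.29, SE 0.11, unadjusted P = 0.0353, adjusted p = 0.515 from limma). Anapc4 (lower) and Anapc11 (higher) also did not overlap, and 9 genes of the list were higher and 9 lower. Thus 2 of 18 genes were at P under 0.05 in limma, against 7.53% of all genes. Genotypes did not overlap for 4 of 18, against 9.13% of all genes. Anapc1, Anapc4, Anapc11 and Rad21 were named after their values were seen.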

How the data were processed

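The authors deposited, for each array, scanner files from Agilent Feature Extraction (12.0 in the submitters' processing notes, 11.5.1.1 in the file headers), with intensity values that were background-subtracted and dye-normalized. The authors also deposited a table of log2 ratios, which matched the scanner log2 ratio centered on the median of each probe (99.9% of values within 0.01). Log2 of processed Cy5 over Cy3 intensity was computed, leaving out control spots and outliers and averaging replicate spots. A probe was tested where every array of 1 genotype or the other had Cy5 well above background (34283 of 56605 probes). The test was limma (version 3.58.1, R 4.3.3, functions lmFit and eBayes), adjusted by Benjamini-Hochberg over these probes and tested on simulated data. The number of arrays limits the precision. The brightest probe stood for a gene. All genes are those with a RefSeq protein-coding name on the array, 15308 kept and 15290 of them with a value on all 7 arrays. Genes named are Mki67, Top2a, Ccna2, Ccnb1, Cdk1, Birc5, Aurkb, Foxm1, E2f1, Mcm2, Pcna, Rrm2, the 5 highest and 5 lowest estimates, and the lowest P of each further list; others illustrate the spread. Motif matching used Python 3.11.15. Members and lists were chosen with earlier results of these data known. Alternatives were another background correction, scaling, filter, probe summary or test, Cy5 alone, the deposited table, array weights, an intensity trend, the replicate number as a block and each array left out.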

Additional observations from a re-analysis of the deposited data

Results flagged for a closer look

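Of 42 groups of 4 PRA transgenic arrays examined for a value far from the rest, 1 was flagged, where chance flags about 1 in 20 groups (2.1 here). The median of skeletal muscle markers had a gap over range of 0.903, with PRA transgenic replicate 4 at 2.98 and replicates 1 to 3 between -1.43 and -1.01. No member and no member group was flagged. Wild-type arrays, 3 in number, are too few for this examination.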

How the results depend on the processing

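No member was called under any of the 13 other settings or with any of the 7 arrays left out. The median log2 fold change of members was -0.09 to 0.06 over the other settings (0.06 with array weights), and -0.51 without wild-type replicate 2 to 0.42 without wild-type replicate 3. Estimates of named genes near 0 changed sign in 9 of 337 values under other settings. With all probes of a gene reduced to their median, Top2a was at -0.0400, Ccna2 at 0.20, Ccnb1 at -0.00600, Birc5 at -0.0103, Ect2 at -0.0491 and Hmmr at -0.0200, and with array weights Ccna2 was at 0.12. With the replicate block the median was -0.09, Ccnb1 was at -0.12 and Birc5 at -0.0506. Same-numbered arrays of the genotypes had correlations of deviations of 0.0997, -0.297 and 0.0362, so the numbers were not taken to pair the animals, and the block changed no call. Leaving out each array in turn gave log2 fold changes of Mki67 from -0.51 to 1.16, Top2a from -0.61 to 0.90, Ccna2 from -0.65 to 0.78, Ccnb1 from -0.58 to 0.88, Cdk1 from -0.52 to 0.17, Birc5 from -0.70 to 0.98, Aurkb from -0.31 to 0.17, Foxm1 from -0.22 to 0.87, E2f1 from -0.20 to 0.0650, Mcm2 from -0.39 to 0.56, Pcna from -0.38 to 0.0180, Rrm2 from -1.04 to 0.23, Ect2 from -0.69 to 1.16, Hmmr from 0.01 to 0.39, Ndc80 from -0.52 to 0.88, Kif2c from -0.80 to 0.11, Ube2c from -0.61 to 0.28, Kif20a from -0.77 to 0.46. Over these genes and the named genes outside the members, the sign changed in 33 of 182 such values. All of these changes were in the genes listed here. The slide or scan as a block was not run, since 1 slide and 1 scan hold all arrays. The cause of these shifts was not tested. The reference was well above background for all 47 members tested, and for Kif2c the gland signal was not on 2 arrays.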
